A study of Mus musculus with 6 samples.

Results

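The proteases of the mitochondrial inner membrane and the partners with which they process the dynamin-like GTPase OPA1 were examined in RNA-Seq libraries of fibroblasts depleted of one of them, the i-AAA protease YME1L. The 10 genes of the set were chosen by name: Yme1l1, Oma1, Afg3l1, Afg3l2, Spg7, Parl, Phb, Phb2, Stoml2 and Opa1. Of the 51499 loci in the count table, 8 carried the name of a member, all 8 passed the filter on low counts, and Afg3l1 and Spg7 were not analysed here. The libraries came from WT mouse embryonic fibroblasts (MEFs) that had been transfected 72 h earlier with either Scr siRNA, the control, or Yme1l siRNA, with 3 libraries from separately transfected cultures per group, and no other genotype or agent was included. The cells of both groups were immortalised, which the sample labels describe as 3T3 immortalisation and the methods as the use of SV40 large T antigen. According to the methods, WT MEFs of this laboratory are Yme1l loxP/loxP clones that retained the gene, so both groups may rest on 1 clone, and p-values measure the spread between cultures of these cells.

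The inner mitochondrial membrane holds 2 AAA proteases that differ in the side on which they act. YME1L forms the i-AAA protease, which faces the intermembrane space, whereas AFG3L2, alone or together with paraplegin (encoded by Spg7) or, in mice, AFG3L1, forms the m-AAA protease, which faces the matrix. OPA1 is cleaved by YME1L and by OMA1, a metallopeptidase that is activated when the membrane is stressed, and the balance of long and short OPA1 forms sets inner membrane fusion and cristae shape. Prohibitins (encoded by Phb and Phb2) and SLP2 (encoded by Stoml2) form membrane scaffolds around these proteases, and PARL is an intramembrane rhomboid protease that associates with YME1L and SLP2.

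The promoters of both prohibitin genes are shown because Phb and Phb2 encode obligate partners and their transcripts changed by 0.79 and 0.30 on the log2 scale after depletion, as described later. The bases just before the RefSeq start were read from GRCm38.p6, 250 for Phb (chr11:95666707-95666956) and 110 for Phb2 (chr6:124712179-124712288), both on the plus strand, with capitals marking the motifs found.
Phb: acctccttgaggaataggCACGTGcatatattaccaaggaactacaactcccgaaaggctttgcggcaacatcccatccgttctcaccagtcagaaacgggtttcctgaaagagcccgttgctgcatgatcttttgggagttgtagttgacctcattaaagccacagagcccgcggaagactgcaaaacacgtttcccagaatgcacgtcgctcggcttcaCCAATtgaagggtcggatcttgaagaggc
Phb2: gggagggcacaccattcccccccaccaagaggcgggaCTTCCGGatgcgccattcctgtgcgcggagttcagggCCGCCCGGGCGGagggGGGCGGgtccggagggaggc
The capitals in Phb mark an E-box (CACGTG) and a CCAAT box, and those in Phb2 mark an ETS motif (CCGGAAG, here on the other strand) and 3 GC boxes (GGGCGG or, on the other strand, CCGCCC), the first 2 of which adjoin. A further ETS match lies 233 to 227 bases before the Phb2 start, on the same strand and outside the 110 bases printed. Within 250 bases before the start, an E-box was found in 6.02% of 32851 RefSeq promoters, a CCAAT box in 33.9%, an ETS motif in 6.91% and a GC box in 32.7%. On both strands, the search also covered NRF1 (GCATGCGC, in 2.26% of promoters), ATF4 (TGATGNAA, 3.45%), ISRE (GAAANNGAA, 7.13%), ERR (TCAAGGTCA, 0.387%) and YY1 (AAGATGGCG, 0.606%) motifs. Of these, the NRF1 and ISRE letters were found before Opa1 and none before the other 6 members with an entry. The ETS letters were also found before Yme1l1, Stoml2 and Parl, the CCAAT letters before Yme1l1 and Opa1, and the GC box before Yme1l1, Stoml2, Oma1 and Opa1. The E-box letters were found before Phb alone. A match of this kind is a description of the letters and does not show a bound site.

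The 8 measured members lay on 6 chromosomes of GRCm38, and each is a protein-coding gene with a row of its own in the count table. The coordinates are those of the GENCODE M21 gene models. Yme1l1 (XLOC_022557) spans chr2:23156369-23199260 on the plus strand, Oma1 (XLOC_029443) chr4:103313812-103371868 on the plus strand, Stoml2 (XLOC_030412) chr4:43027690-43031710 on the minus strand, Phb2 (XLOC_035933) chr6:124712336-124716950 on the plus strand, Phb (XLOC_006855) chr11:95666957-95680773 on the plus strand, and Afg3l2 (XLOC_021137) chr18:67404764-67449172 on the minus strand. Parl (XLOC_018296) at chr16:20279818-20302387 on the minus strand and Opa1 (XLOC_017777) at chr16:29579334-29654884 on the plus strand share a chromosome. The deposited FPKM table places Stoml2 and Phb2 in wider intervals, chr4:43027690-43053254 and chr6:124712336-124718831, together with neighbours that have rows of their own, among them Fam214b with 2546 to 4760 counts beside Stoml2.

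From 37260605 to 45205207 counts were assigned per library, and 14499 loci were tested. Counts are given as counts per 1000000 counts (CPM), scaled between libraries by the trimmed mean of M values (TMM), and differences as log2 fold changes of Yme1l siRNA against Scr siRNA, called when the Benjamini-Hochberg adjusted p of edgeR's quasi-likelihood test was under 0.05. By this rule, 28.4% of all loci tested were higher and 29.6% lower after Yme1l siRNA, so that a call alone was common in this comparison. Among the 8 members, 5 were called higher (Phb, Afg3l2, Stoml2, Phb2 and Parl), 2 were called lower (Yme1l1 and Oma1), and Opa1 was not called. The CPM of the groups did not overlap in 7 of the 8 members, against 65.4% of all loci tested in either direction. The median log2 fold change of the members was 0.24, compared with 0.01 over all loci, whose quartiles were -0.42 and 0.41.

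Of 10 fibroblast markers, 8 were measured at testable levels, 7 of these were lower after Yme1l siRNA, and their summed level was 33550 to 40740 CPM in Scr siRNA libraries and 18040 to 22450 CPM in Yme1l siRNA libraries. Thy1 and Lum reached at most 0.0237 and 0.356 CPM in any library. Among 4 leukocyte markers, Ptprc reached at most 3 counts and Cd3e was at 0, and the summed 44.6 to 53.9 CPM in Scr siRNA and 26.3 to 59.8 CPM in Yme1l siRNA came mostly from Cd68. The 4 epithelial markers summed to 0.0924 to 0.166 CPM in Scr siRNA and 0.807 to 1.33 CPM in Yme1l siRNA, and the 3 endothelial markers to 0.450 to 0.720 CPM and 1.43 to 1.92 CPM. Krt8 and Kdr were called higher, each under 1 CPM in every library. The part of these marker shifts in the results below was not tested.

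Yme1l1, the targeted gene, was first examined in every library. It stood at 170.5, 171.3 and 170.6 CPM in the Scr siRNA libraries and at 31.6, 23.4 and 45.04 CPM in the Yme1l siRNA libraries. Every library labelled Yme1l siRNA thus lay far below every control, with a gap of 125 CPM between the groups. The mean fell from 170.8 ± 0.425 to 33.4 ± 10.9 CPM (SD, n = 3 per group), a log2 fold change of -2.36 (SE 0.203, 95% interval -2.82 to -1.89, edgeR adjusted p = 3.87e-05), which left 19.5% of the control level. The depletion was uneven between cultures, with a coefficient of variation of 32.7% in the Yme1l siRNA group compared with 0.248% in the Scr siRNA group. The control value was unusually small, as the other members had 4.53% to 14.3% in Scr siRNA libraries. In Yme1l siRNA libraries the other members had 3.76% to 11.6%. In bulk RNA, fewer depleted cells and less depletion per cell cannot be told apart.

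Oma1, the stress-activated peptidase that shares OPA1 as a substrate with YME1L, was the least abundant member and the only other one called lower. Its level was 6.54, 7.65 and 8.72 CPM after Scr siRNA, from 283, 276 and 368 counts, and 5.55, 5.18 and 6.05 CPM after Yme1l siRNA, from 246, 225 and 255 counts. The groups did not overlap, but only 0.485 CPM separated the lowest control from the highest depleted library. The log2 fold change was -0.45 (SE 0.144, 95% interval -0.78 to -0.12, edgeR adjusted p = 0.0261). In 4 of 6 fits with 1 library omitted the gene no longer passed, namely without Scr siRNA 2, Scr siRNA 3, Yme1l siRNA 1 or Yme1l siRNA 2, where the log2 fold change was -0.45, -0.35, -0.44 and -0.39 and the adjusted p 0.065, 0.0793, 0.075 and 0.0772.

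Afg3l2, the catalytic subunit of the matrix-facing m-AAA protease, rose. It was at 59.6, 56.5 and 54.4 CPM in Scr siRNA libraries and at 93.6, 90.6 and 98.2 CPM in Yme1l siRNA libraries, so that the groups were 31.0 CPM apart. The mean went from 56.8 ± 2.57 to 94.1 ± 3.86 CPM (SD, n = 3 per group), a log2 fold change of 0.73 (SE 0.068, 95% interval 0.57 to 0.88, edgeR adjusted p = 5.50e-05) or 65.7% more. Among the loci tested, its log2 fold change stood at percentile 86.2. Depletion of the i-AAA protease transcript was thus accompanied by a higher transcript level of the m-AAA subunit.

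Parl, the rhomboid protease, was at 46.4, 48.7 and 43.7 CPM in Scr siRNA libraries and 50.5, 52.1 and 54.6 CPM in Yme1l siRNA libraries. The groups were separated by 1.80 CPM. The log2 fold change of 0.18 (SE 0.068, 95% interval 0.02 to 0.34, edgeR adjusted p = 0.0492) lay just inside the threshold and was called in only 4 of 14 alternative fits and in 0 of the 6 fits without 1 library, in which the adjusted p ran from 0.0584 to 0.147.

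Both prohibitin genes rose. Phb was at 104.7, 119.3 and 112.7 CPM in Scr siRNA libraries and 192.5, 186.7 and 201.2 CPM in Yme1l siRNA libraries, a log2 fold change of 0.79 (SE 0.074, 95% interval 0.62 to 0.96, edgeR adjusted p = 5.70e-05) and the largest rise among the members. Phb2, its partner in the ring complex, was at 131.9, 132.8 and 121.0 CPM in Scr siRNA libraries and 156.4, 151.4 and 167.5 CPM in Yme1l siRNA libraries, a log2 fold change of 0.30 (SE 0.073, 95% interval 0.13 to 0.47, edgeR adjusted p = 0.00742). For both genes every depleted library exceeded every control, by at least 67.4 CPM for Phb and 18.5 CPM for Phb2. In terms of the mean, Phb was 72.4% and Phb2 23.2% higher.

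Reads of Phb can also match a near-identical copy. Gm7666, a transcribed processed pseudogene at chr15:6653923-6654741 inside Fyb, which encodes an adaptor protein of haematopoietic cells, is 99.9% identical to Phb over 819 bases, and the deposited tables join it with Fyb into 1 locus. That locus held 501, 456 and 668 counts in Scr siRNA libraries and 843, 854 and 869 counts in Yme1l siRNA libraries, from 9.87% to 14.1% of the counts of Phb, and its log2 fold change was 0.57 (SE 0.122, edgeR adjusted p = 0.00413). How reads were divided between the copies is not given in the sources used here. With both loci summed, an alternative chosen after the data were seen, the log2 fold change was 0.76 (edgeR adjusted p = 6.76e-05). The other annotated copies of Phb held at most 1 count per library.

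Emg1, a ribosome biogenesis gene that faces Phb2 across the promoter shown above, was looked up after the values were seen. It was at 69.5, 73.3 and 70.8 CPM in Scr siRNA libraries and 86.7, 86.6 and 95.4 CPM in Yme1l siRNA libraries, a log2 fold change of 0.33 (SE 0.069, edgeR adjusted p = 0.00343) beside 0.30 for Phb2. Phb2 exons also overlap those of Gm15884 on the opposite strand, which was listed at 0, and a snoRNA on the same strand.

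Stoml2, which encodes the scaffold protein SLP2, was at 98.7, 100.98 and 92.0 CPM after Scr siRNA and at 136.9, 120.9 and 152.6 CPM after Yme1l siRNA. All depleted libraries were higher, although they spread over a range of values that was wider than the 19.9 CPM between the groups. The mean went from 97.2 ± 4.66 to 136.8 ± 15.9 CPM (SD, n = 3 per group), a log2 fold change of 0.49 (SE 0.094, 95% interval 0.28 to 0.71, edgeR adjusted p = 0.0022). Its processed pseudogene Gm5626, which is 95.2% identical, held 2 to 8 counts per library.

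Opa1, the substrate, did not pass the test. It was at 88.5, 84.8 and 95.8 CPM in Scr siRNA libraries and 90.99, 82.3 and 97.7 CPM in Yme1l siRNA libraries, and the depleted libraries enclosed the range of the controls. The log2 fold change was 0.0095 (SE 0.085, 95% interval -0.18 to 0.20, edgeR adjusted p = 0.93). With 3 libraries per group, changes of the summed Opa1 transcripts within that interval remained compatible with the counts. Counts were given per locus, so splice forms of Opa1 and the cleavage of its protein were not measured. In the deposited FPKM, which pools the cultures of each group, Opa1 was at 19.4 for Scr siRNA and 22.9 for Yme1l siRNA. The FPKM was thus higher after depletion, unlike the mean CPM, although both rest on the same cultures. A pooled value shows no spread between cultures, and the deposited p-values were not used. The reason for the difference between FPKM and CPM was not tested.

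**Figure D1:**
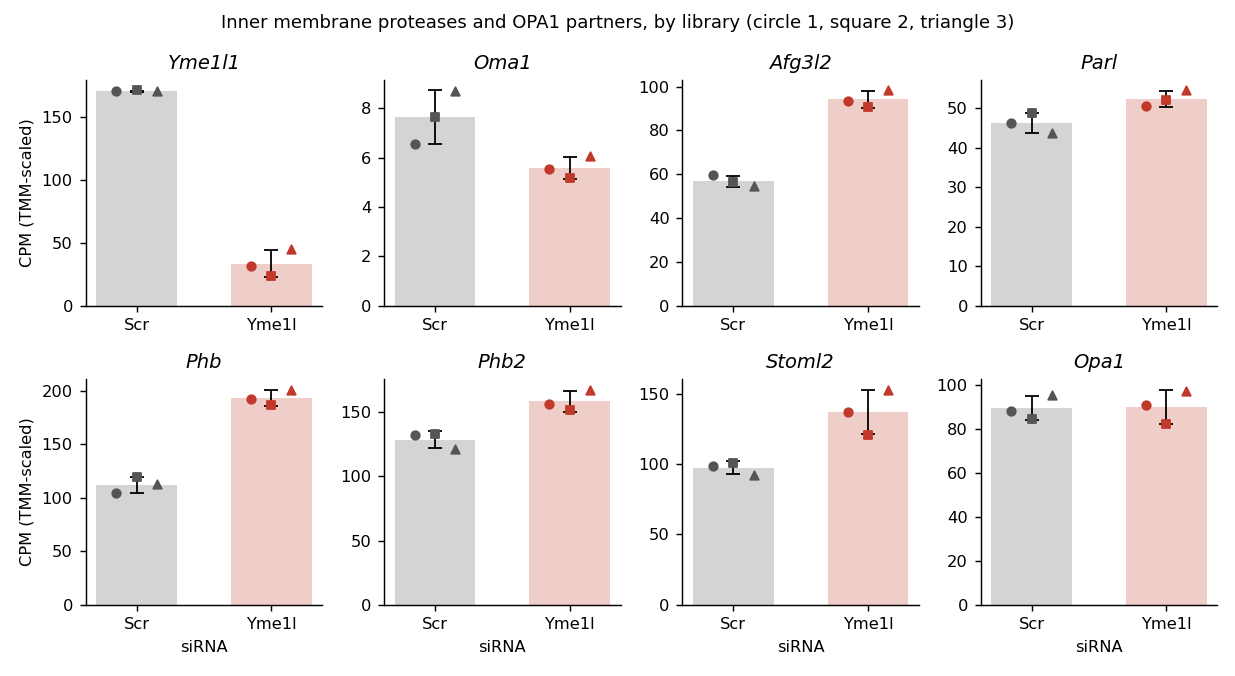
CPM of each member (vertical axis of each panel, from 0) in the 3 Scr siRNA and 3 Yme1l siRNA libraries. Points are libraries, bars the group means and whiskers the SD. Yme1l1 and Oma1 were lower in every Yme1l siRNA library, Opa1 overlapped between groups, and the others were higher in every Yme1l siRNA library.

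The members were then compared on 1 scale. Among the 7 members other than Yme1l1, 4 moved by more than 0.42, the median absolute log2 fold change of all loci, namely Phb, Afg3l2, Stoml2 and Oma1. Only Yme1l1 changed at least 2-fold, as did 16.2% of all loci. Counted from the most negative log2 fold change of all loci, Yme1l1 stood at percentile 0.614, Oma1 at 23.6, Opa1 at 50.1, Parl at 61.7, Phb2 at 69, Stoml2 at 78.6, Afg3l2 at 86.2 and Phb at 87.6. By the exact permutation test over the 3 + 3 libraries (two-sided), 7 members reached p = 0.1, the smallest that this design allows, and Opa1 gave p = 1. This p is reached wherever the groups do not overlap, as in 65.4% of all loci tested. It therefore restates the count of members without overlap, the targeted Yme1l1 included.

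**Figure D2:**
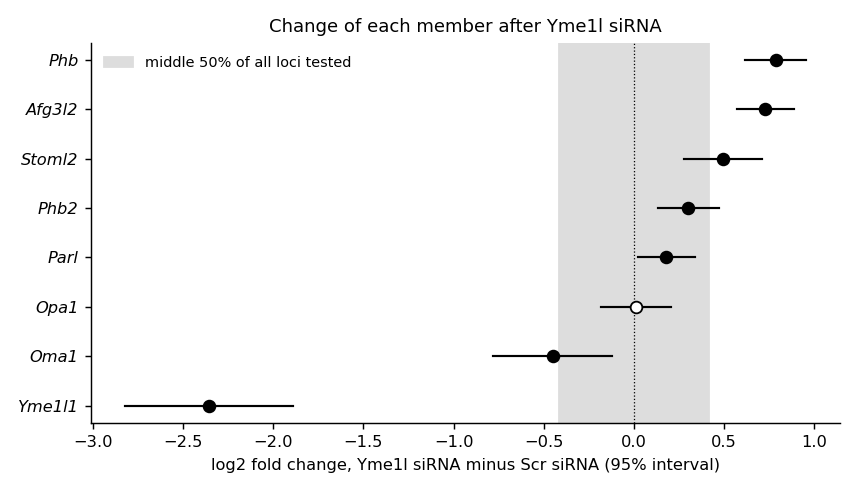
Log2 fold change of each member (horizontal axis) with its 95% interval, filled where the adjusted p was under 0.05, over the range between the quartiles of all loci tested (grey, -0.42 to 0.41). Yme1l1 lies alone at -2.36, Phb and Afg3l2 lie above the grey range with their whole intervals, and Opa1 lies at 0.0095.

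Levels between genes were compared as CPM per kb of exon. In Scr siRNA libraries the scaffold genes led, with Phb at 40.0 ± 2.60, Phb2 at 34.6 ± 1.77 and Stoml2 at 32.2 ± 1.54 CPM per kb (SD, n = 3). They were followed by Yme1l1 at 21.3 ± 0.0529, Parl at 11.9 ± 0.654, Opa1 at 11.4 ± 0.712, Afg3l2 at 5.75 ± 0.261 and Oma1 at 3.56 ± 0.510 CPM per kb. The ranges of Phb2 and Stoml2 overlapped, as did those of Parl and Opa1, and the other neighbours in this order were separate. After Yme1l siRNA, Phb stood at 69.0 ± 2.60, Stoml2 at 45.3 ± 5.25 and Phb2 at 42.6 ± 2.22 CPM per kb, the latter 2 again overlapping. Parl at 13.5 ± 0.520 and Opa1 at 11.5 ± 0.978 CPM per kb came next, with Opa1 separate from Afg3l2 at 9.53 ± 0.391. Afg3l2 then lay above Yme1l1 at 4.17 ± 1.36, while Oma1 remained last at 2.61 ± 0.205 CPM per kb. The exon length of a gene model counts every annotated exon, so levels of genes with long or rarely used exons are understated. In the deposited FPKM, pooled per group over its cultures, Stoml2 (127), Phb (125) and Phb2 (120) also led in the Scr siRNA group. Oma1 (4.36) was last there, but Parl (39.5) stood above Yme1l1 (37.3). After Yme1l siRNA, Afg3l2 (31.3) stood above Opa1 (22.9) in FPKM, unlike in CPM per kb.

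Ratios between members of the same library do not depend on how libraries are scaled. They were computed from counts per kb for 4 pairs. The ratio of Oma1 to Yme1l1, the transcripts of both OPA1-cleaving peptidases, was 0.143, 0.167 and 0.191 in Scr siRNA libraries and 0.655, 0.825 and 0.502 in Yme1l siRNA libraries. It was thus 3.90-fold higher after depletion, although Oma1 itself was lower, because its denominator is the targeted gene. The ratio of Opa1 to Yme1l1 was 0.528, 0.504 and 0.571 in controls and 2.93, 3.57 and 2.21 after depletion, which is 5.33-fold higher while Opa1 itself did not pass the test. For ratios over Yme1l1 the depletion of the target fixes the separation of the groups, so they are given as descriptions.

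Within the scaffold genes, the ratio of Phb to Phb2 was 1.05, 1.19 and 1.23 in Scr siRNA libraries and 1.63, 1.64 and 1.59 in Yme1l siRNA libraries, a log2 difference of 0.49. The log2 ratio varied by an SD of 0.121 in controls and of 0.0214 after depletion. The ratio of Stoml2 to Phb2 was 0.920, 0.935 and 0.935 in controls and 1.08, 0.983 and 1.12 after depletion, a log2 difference of 0.19. In both scaffold ratios the groups did not overlap, and each gave p = 0.1 by a two-sided exact permutation test (adjusted p = 0.1 over the 4 ratios computed), the smallest that 3 libraries against 3 allow. The ratio of Afg3l2 to Yme1l1, added after the values were seen and given without a test, was 0.283, 0.267 and 0.259 in controls and 2.40, 3.13 and 1.77 after depletion. That of Oma1 to Afg3l2, added likewise, was 0.506, 0.624 and 0.738 in controls and 0.273, 0.263 and 0.284 after depletion, so the transcript level of Oma1 relative to that of Afg3l2 was lower in every depleted library.

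**Figure D3:**
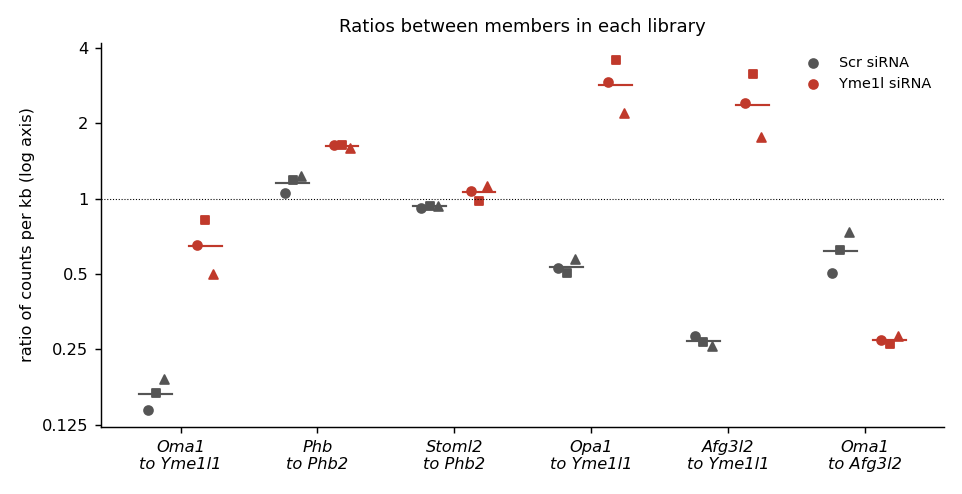
Ratio of counts per kb between 2 members (log axis) in each library. Lines are geometric means, grey points Scr siRNA and red points Yme1l siRNA libraries. The groups are separate for each of the 6 ratios, with Oma1 to Yme1l1 rising from 0.166 to 0.647 and Oma1 to Afg3l2 falling from 0.615 to 0.273.

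The 3 Yme1l siRNA libraries held the same order in most members. Library 2 was lowest and library 3 highest in 7 of the 8 members, Yme1l1 and Opa1 included, with Parl as the exception. This order was found in 27% of all loci tested, and in 24% to 29% of them under other scalings, each of which left 7 members in it. The order was noticed in these values and is given as a description. The culture with the weakest depletion of Yme1l1 also had the highest CPM of every other member in that group. This held for the members called higher, for Oma1, which was called lower, and for Opa1, which was not called.

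Genes that the literature links to these proteases were then described from 6 lists, 50 of whose 51 named genes were tested. Of these, 15 were higher, 10 were lower and 25 were not called, with a median log2 fold change of 0.05, compared with 0.01 over all loci and 28.4% higher and 29.6% lower among them. Among 5 of 6 known YME1L substrates measured, 3 were higher and 1 was lower, with a median of 0.24. Timm17a, a subunit of the presequence translocase, was higher, at 69.4 to 71.3 CPM in Scr siRNA and 101.1 to 108 CPM in Yme1l siRNA libraries (log2 fold change 0.57, edgeR adjusted p = 0.000129). Slc25a33, the pyrimidine nucleotide carrier, was higher, at 19.0 to 20.8 CPM in controls and 24.4 to 25.3 CPM after depletion (0.32, adjusted p = 0.00532). Romo1, a small inner membrane protein, was lower, at 37.3 to 45.6 CPM in controls and 22.1 to 24.8 CPM after depletion (log2 fold change -0.78, adjusted p = 0.000202). The transcripts of YME1L substrates thus moved in both directions.

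Around the m-AAA protease, whose substrates and partners include regulators of the mitochondrial calcium uniporter, 1 of 6 genes was higher and 1 was lower, with a median of 0.03. The uniporter regulator Micu2 was lower, at 92.3, 102.6 and 89.5 CPM in controls and 62.4, 59.9 and 63.9 CPM after depletion (log2 fold change -0.61, edgeR adjusted p = 0.000205). Mcu, the pore subunit, was at 26.9, 24.4 and 24.9 CPM in controls and 27.96, 30.7 and 28.4 CPM after depletion, which did not pass the test (0.19, adjusted p = 0.0581) but did with upper-quartile factors, library totals only or a minimum mean of 50 counts. Smdt1, which encodes EMRE, the uniporter subunit that the m-AAA protease degrades when unassembled, was higher (0.25, adjusted p = 0.0272), but its locus joins Fam109b, and the call was lost without Scr siRNA 1, 2 or 3 or without Yme1l siRNA 2 (0.24, 0.28, 0.23 and 0.19). Among 7 substrates of OMA1 and PARL, 3 were higher and 1 was lower, with a median of 0.04. Pink1, the mitophagy kinase that PARL cleaves, was at 31.3, 33.8 and 27.5 CPM in Scr siRNA libraries and at 10.6, 10.7 and 8.99 CPM in Yme1l siRNA libraries, the lowest log2 fold change of the 50 genes at -1.61 (edgeR adjusted p = 1.45e-05). Pgam5, a phosphatase and PARL substrate, was at 40.5, 39.5 and 35.1 CPM in controls and 74.4, 72.5 and 71.0 CPM after depletion, the highest of the 50 at 0.92 (adjusted p = 2.72e-05). Dele1, which relays OMA1 activation to the cytosolic stress response and is listed under its older name 0610009O20Rik, rose by 0.58 on the log2 scale (adjusted p = 0.000149). Pink1 and Pgam5, both named for their small adjusted p, thus changed with opposite signs, while 3 of the 7 genes of this list were not called.

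Among 9 partners of the prohibitins and of the MICOS complex, which shapes cristae junctions, 2 were higher and 2 were lower, with a median of 0.01. Apool, a cardiolipin-binding MICOS subunit, was at 12.9, 14.6 and 13.7 CPM in controls and 6.31, 5.94 and 6.72 CPM after depletion (log2 fold change -1.12, edgeR adjusted p = 5.88e-05), and Micos13, listed as 2410015M20Rik, changed by -0.69 (adjusted p = 0.000123). Apoo, another MICOS subunit, changed by 0.35 (adjusted p = 0.0153), a call lost without Scr siRNA 1 or Yme1l siRNA 1 (0.32 and 0.31). Of 9 fusion and fission genes, 4 were lower and 5 were not called, with a median of -0.07, beside 29.6% lower over all loci. The fission GTPase gene Dnm1l (-0.48, edgeR adjusted p = 0.00162) and its receptor genes Mff (-0.29, adjusted p = 0.00674) and Fis1 (-0.23, adjusted p = 0.0162) were lower. The call of Fis1 did not hold with library totals only (-0.17) or without Scr siRNA 2 or Yme1l siRNA 1 (both -0.21). Of the 14 other mitochondrial proteases, 6 were higher and 1 was lower, with a median of 0.15. Over all loci tested, 28.4% were higher and 29.6% lower. Htra2 of the intermembrane space (0.53, edgeR adjusted p = 0.000231), the gene of the filament-forming intermembrane space protein Lactb (0.54, adjusted p = 0.00086) and the matrix protease gene Lonp1 (0.38, adjusted p = 0.00307) had the smallest p, each higher in all 3 depleted libraries. Nln, the oligopeptidase neurolysin, was the lower one (-0.34, adjusted p = 0.0494), with overlapping groups and a call that was lost with every other scaling tried in edgeR (-0.33 to -0.27) and without each library in turn except Yme1l siRNA 3 (-0.38 to -0.20). Prelid1, a YME1L substrate, was higher by 0.24 (adjusted p = 0.0252), a call lost without Scr siRNA 1, 2 or 3 or Yme1l siRNA 2 (0.25, 0.26, 0.20 and 0.19). Dnajc19, a prohibitin partner, was higher by 0.34 (adjusted p = 0.0253), a call lost without Scr siRNA 1 or 3 or Yme1l siRNA 2 (0.28, 0.28 and 0.29). The fission receptor gene Mief2 changed by -0.32 (adjusted p = 0.0343), a call lost in 7 of 14 alternative fits, and Diablo, a PARL substrate in a joined locus, by 0.33 (adjusted p = 0.00912). Nln, Prelid1, Dnajc19, Mief2 and Diablo were named after their values were seen.

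The loci whose profile over the 6 libraries lay nearest to that of Yme1l1 were ranked by the root mean square difference of centred log2 CPM among 11440 other loci. Sh3bgrl (joined with Gm6377) came first with a difference of 0.101, followed by Hist1h1c (0.116), Mctp1 (0.14), Slc44a5 (0.154) and Dynlt3 (0.172). Their log2 fold changes were -2.35, -2.31, -2.57, -2.21 and -2.69, beside -2.36 for Yme1l1. This closeness follows from the ranking, which used the same libraries, and is given as a description.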

How the data were processed

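Per the labels and the methods, poly(A) RNA of 6 cultures was sequenced from stranded libraries, and the authors mapped reads to GRCm38 (mm10) with HISAT2 2.0.4, assembled transcripts with StringTie 1.3.3 and computed FPKM per group with Cuffdiff 2.2.1. The deposited counts are whole numbers per locus. The counting program and its use of strand are not given in the sources used here. The deposited table of FPKM pools the 3 cultures of each group and served for the order of levels, the intervals of loci and the FPKM of Opa1. Its columns of fold changes and p-values were not used.

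Counts were tested with edgeR 4.0.16 (R 4.3.3; filterByExpr with a minimum count of 10, TMM, quasi-likelihood F-test, Benjamini-Hochberg over all loci tested), and a 95% interval came from the SE and the total degrees of freedom. DESeq2 1.42.0, limma 3.58.1 (voom), other scalings and filters, a replicate block and leaving out each library were alternatives. The code was tested on simulated data. Gene models came from GENCODE M21, promoters from RefSeq (found for 7 of the 8 members measured, not Afg3l2), and copies were sought with BLAST 2.17.0. Libraries of a group differed by more than sampling noise (chi-square per degree of freedom 10.4 to 75.5). Genes were named by rule: all members, the 3 smallest adjusted p of each list, the 5 profiles nearest to Yme1l1 and the marker genes. Members and lists were chosen with earlier results of these data known. 1 listed gene is not reported here.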

Additional observations from a re-analysis of the deposited data

How the results depend on the processing

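Of the 8 members, Yme1l1, Afg3l2, Phb, Phb2 and Stoml2 were called in the same direction in all 14 alternative fits, with log2 fold changes of -2.64 to -2.15, 0.69 to 0.79, 0.73 to 0.85, 0.25 to 0.37 and 0.40 to 0.58, and Opa1 was called in 0 of them (-0.053 to 0.080, adjusted p 0.421 to 0.999). Oma1 was called in 9 of 14 (-0.56 to -0.35, adjusted p 0.0162 to 0.0793) and Parl in 4 of 14 (0.13 to 0.25, adjusted p 0.0131 to 0.147). The count of members lower was 1 with library totals only and at an adjusted p under 0.01, and 1 to 2 without 1 library. With library totals only, Oma1 stood at -0.39 (adjusted p = 0.0572); the cause of these differences was not tested. Among the lists, the m-AAA partners higher numbered 2 with upper-quartile factors, library totals only or a minimum mean of 50 counts, 0 at an adjusted p under 0.01, and 0 to 1 without 1 library. The prohibitin and MICOS partners higher numbered 0 at an adjusted p under 0.01 and 0 to 2 without 1 library. The fusion and fission genes lower numbered 2 with library totals only and at an adjusted p under 0.01, and 2 to 4 without 1 library. The other proteases lower numbered 0 with RLE, upper-quartile or no factors, with the mean filter, at an adjusted p under 0.01, and 0 to 1 without 1 library. Of 41 other named genes, 7 (Smdt1, Apoo, Fis1, Prelid1, Dnajc19, Mief2 and Nln) lost the call in 32 instances over the fits, Vim gained it without Scr siRNA 3 and Mcu in 3 fits, and Cd68, which was not called, ran from -0.40 to 0.13 without 1 library (-0.13 with all), the positive value without Yme1l siRNA 3. The median over all loci moved to at most 0.075 in any alternative fit. Same-numbered cultures correlated in their deviations from the group means by 0.0409, 0.116 and 0.192. Every library except Scr siRNA 1 correlated best with its own number. The methods state no pairing, so the main fit did not treat the cultures as pairs. With the replicate block, the members higher numbered 4, those lower 2, and Parl was at 0.18 (adjusted p = 0.0641). With 3 libraries per group, the interval of Opa1 gives the changes that remained compatible with its counts.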
